A study of Mus musculus with 14 samples.

Results

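Aminoacyl-tRNA synthetase genes were followed in the bone marrow cells of a mouse model of a Jak2V617F blood disease, with and without interleukin-1β (IL-1β). The 36 genes were taken by name from a list of cytosolic and mitochondrial synthetases, 20 and 16 respectively, out of 55487 gene identifiers in the count tables. The rule read gene names only, but this family was picked with earlier results of these data known. Sorted cells came from mice of C57BL/6 background that carried 1 mutant and 1 normal Jak2 allele (Mx1Cre; Jak2VF/+). Recombination had been induced with pI-pC through the interferon-responsive Mx1 promoter, and the marrow had been transplanted into irradiated C57BL/6 mice, so the stroma around the sorted cells was that of the host. These mice received PBS or IL-1β (0.5 µg per dose, 3 doses per week, intraperitoneally) for 16 weeks. LSK cells (Lin-Sca1+c-kit+, the stem and early progenitor gate) and LK cells (Lin-c-kit+, the myeloid progenitor gate, labelled MP) gave 3 PBS and 2 IL-1β libraries each. MSC libraries came from marrow of C57BL/6 mice without the mutant allele, cultured for 21 days and then exposed for 72 h to IL-1β at 5 ng/ml or to PBS, with 2 libraries per treatment. The labels give no age or sex and do not say whether a library is 1 mouse or a pool, so the p-values below measure the spread between these libraries, which may be technical.

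Each synthetase joins 1 amino acid to its tRNAs and so supplies the ribosome. Most amino acids have a cytosolic and a separate mitochondrial enzyme, both encoded in the nucleus, while Gars and Kars serve both compartments from 1 gene. In the cytosol Eprs, Iars, Lars, Mars, Qars, Rars, Kars and Dars sit in the multi-tRNA synthetase complex on the scaffold proteins Aimp1, Aimp2 and Eef1e1. Many cytosolic synthetase genes are known targets of ATF4, the transcription factor of the amino acid response, and blood stem cells are known for a low rate of protein synthesis compared with the progenitors they give rise to.

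Promoter windows, from 250 bases before to 50 bases after the annotated start, were found in RefSeq for 27 of the 36 genes (13 cytosolic, 14 mitochondrial) on GRCm38.p6, the build of the counts. Windows were looked up by symbol. None was found under the symbols Cars, Hars, Lars, Nars, Rars, Vars, Wars, Hars2 and Pars2, so these promoters were not searched. The letters TGATGNAA, the core of the amino acid response element that ATF4 dimers bind, were searched on both strands. They occurred in 5 of the 13 cytosolic windows and in 0 of the 14 mitochondrial ones, beside 4.51% of the 27025 genes in the same promoter table. The 5 windows are printed because they hold that motif, and the Yars2 window because Yars2 had the lowest level in LSK relative to LK cells among the members. Capitals mark TGATGNAA or its reverse complement, and the Yars2 window, which has no match, is in lower case throughout. The windows are chr8:111033592-111033891 (+ strand) for Aars, chr6:55037751-55038050 (+ strand) for Gars, chr13:49681880-49682179 (+ strand) for Iars, chr15:11399609-11399908 (- strand) for Tars, chr4:129189653-129189952 (+ strand) for Yars and chr16:16302715-16303014 (+ strand) for Yars2, each covering the annotated start and the first transcribed bases of its gene and written 5′ to 3′ on the gene's strand.
Aars: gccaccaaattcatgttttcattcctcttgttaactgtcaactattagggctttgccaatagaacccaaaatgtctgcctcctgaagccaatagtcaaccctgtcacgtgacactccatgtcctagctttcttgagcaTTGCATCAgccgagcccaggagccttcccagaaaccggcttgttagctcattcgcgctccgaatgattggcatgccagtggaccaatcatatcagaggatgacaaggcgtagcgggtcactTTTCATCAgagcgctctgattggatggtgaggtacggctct
Gars: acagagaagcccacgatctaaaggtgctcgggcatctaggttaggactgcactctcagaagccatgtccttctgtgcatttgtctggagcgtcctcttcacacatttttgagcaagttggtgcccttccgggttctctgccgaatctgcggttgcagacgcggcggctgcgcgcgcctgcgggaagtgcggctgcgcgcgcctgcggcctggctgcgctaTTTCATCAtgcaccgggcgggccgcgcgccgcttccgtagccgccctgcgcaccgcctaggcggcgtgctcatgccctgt
Iars: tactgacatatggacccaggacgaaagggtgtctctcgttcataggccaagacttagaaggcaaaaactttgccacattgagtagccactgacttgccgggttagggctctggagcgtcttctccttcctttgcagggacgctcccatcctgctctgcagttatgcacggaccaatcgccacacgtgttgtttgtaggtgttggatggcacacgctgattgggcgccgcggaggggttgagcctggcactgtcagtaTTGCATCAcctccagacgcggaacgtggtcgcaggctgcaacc
Tars: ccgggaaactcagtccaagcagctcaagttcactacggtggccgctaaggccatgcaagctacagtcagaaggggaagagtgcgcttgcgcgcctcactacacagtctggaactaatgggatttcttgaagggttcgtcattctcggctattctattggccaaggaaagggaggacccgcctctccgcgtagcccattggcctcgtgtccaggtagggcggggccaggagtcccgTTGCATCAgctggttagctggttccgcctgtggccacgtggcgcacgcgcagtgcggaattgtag
Yars: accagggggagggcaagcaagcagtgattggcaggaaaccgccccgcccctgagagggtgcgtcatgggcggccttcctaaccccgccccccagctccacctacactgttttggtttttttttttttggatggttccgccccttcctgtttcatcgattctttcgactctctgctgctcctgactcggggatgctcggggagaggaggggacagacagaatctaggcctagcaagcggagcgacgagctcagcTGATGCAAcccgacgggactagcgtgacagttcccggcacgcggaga
Yars2: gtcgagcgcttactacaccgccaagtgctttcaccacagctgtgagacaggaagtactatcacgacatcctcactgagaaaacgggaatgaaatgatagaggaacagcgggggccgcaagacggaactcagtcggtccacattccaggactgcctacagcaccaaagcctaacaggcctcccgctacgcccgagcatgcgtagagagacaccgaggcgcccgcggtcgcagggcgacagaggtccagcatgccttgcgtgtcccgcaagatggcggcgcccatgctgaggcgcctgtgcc
The match lay close to the annotated start in 4 of the genes. Its first base was 30 bases before the start in Gars and 15 bases before it in Tars, and at 8 and 4 bases after it in Iars and Yars. Aars held 2 matches, at 112 bases before and 10 bases after the start. A match is a stretch of letters and not a measured binding site.

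**Figure D1:**
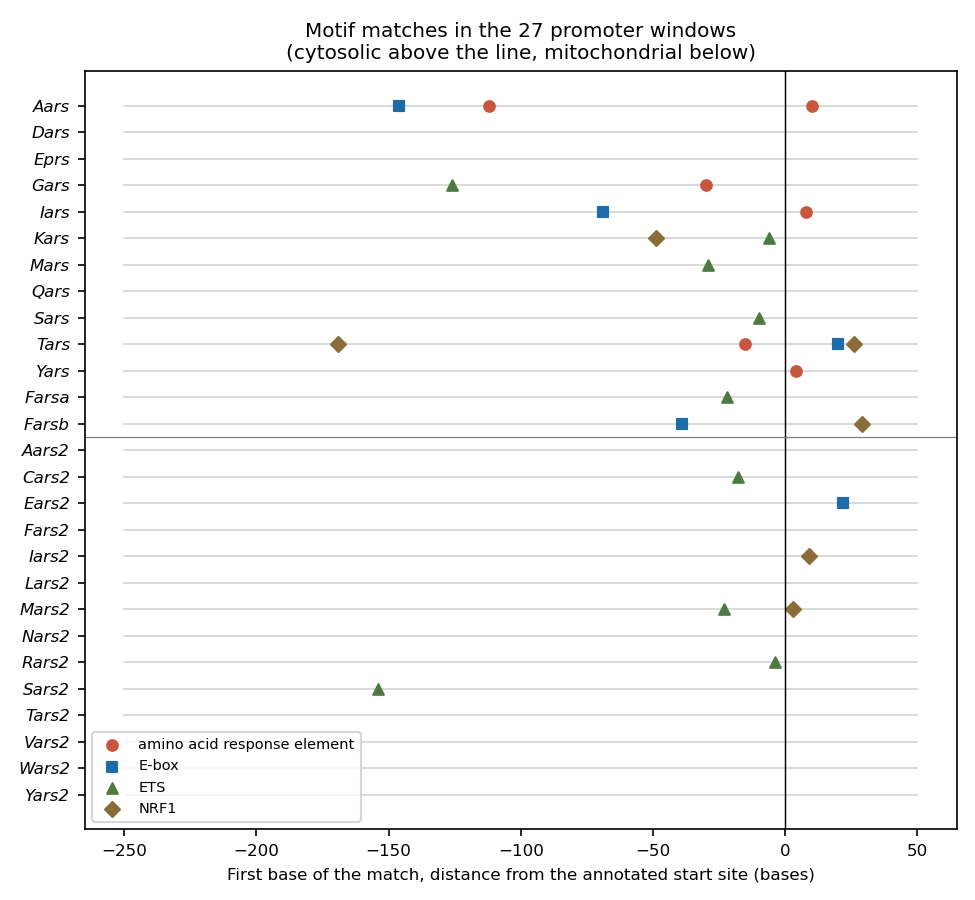
Matches to 4 motifs in the 27 promoter windows, with the distance of the first base of a match from the annotated start site in bases on the horizontal axis and 1 gene per row. Circles for the amino acid response element lie in 5 cytosolic genes and in no mitochondrial gene, whereas squares (E-box), triangles (ETS) and diamonds (NRF1) lie in both groups.

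The other motifs were found in both groups. The E-box CACGTG, which MYC binds, was found in 4 of 13 cytosolic windows (Aars, Iars, Tars and Farsb) and 1 of 14 mitochondrial windows (Ears2), against 8.09% of all genes. The ETS core CCGGAAG was found in 5 cytosolic (Gars, Kars, Mars, Sars and Farsa) and 4 mitochondrial windows (Cars2, Mars2, Rars2 and Sars2), against 9.93% of all genes. The NRF1 motif, bound by a regulator of nuclear genes for mitochondrial proteins, was found in 3 cytosolic (Kars, Tars and Farsb) and 2 mitochondrial windows (Iars2 and Mars2), against 5.19% of all genes. CACGTG reads the same on both strands and was counted once per place. No match of one motif overlapped a match of another, and in Tars the NRF1 match at 26 bases after the start followed directly on the E-box at 20 bases.

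Counted read pairs per library ran from 4393233 to 18544346 in the sorted cells, where the IL-1β libraries were all shallower than the PBS libraries beside them, and from 5834909 to 30871055 in MSC. Kit was at 65.6 to 259.9 TPM in the sorted libraries and the summed LSK markers Ly6a, Mecom, Hlf and Flt3 were higher in every LSK than in every LK library, the latter at 11.9 to 27.6 TPM. In MSC the 8 macrophage markers summed to 23962 to 65862 TPM and the 8 stromal markers to 407 to 983 TPM, with Lepr at 0 in both PBS libraries and at 0.0696 and 0.218 TPM in the IL-1β libraries, so these cultures are called by their label only. Marker sums differed between the treatments. In LSK cells the LSK markers summed to 395, 297 and 297 TPM under PBS and to 86.9 and 78.5 TPM under IL-1β, and Hlf and Flt3 of them were called lower (log2 fold changes -2.08 and -2.42). The summed myeloid progenitor markers Mpo, Elane, Prtn3 and Ctsg went from 2458 to 4588 TPM under PBS to 11817 and 13520 TPM in LSK cells, and the lymphoid markers from 149 to 457 TPM to 4.05 and 7.82 TPM. Neutrophil granule markers went from 5.44 to 26.9 TPM under PBS to 313 and 182 TPM in LSK cells, and from 16.9 to 36.03 TPM to 1799 and 854 TPM in LK cells. In LK cells the myeloid progenitor markers went from 3879 to 13727 TPM to 32385 and 27532 TPM and the erythroid markers from 4058 to 5615 TPM to 3341 and 3728 TPM. The part of this shift in the synthetase values was not tested, and in bulk libraries fewer cells of a type and less RNA per cell cannot be told apart.

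LSK PBS library 2 and LK PBS library 1 stood apart. LSK PBS library 2 had the highest lymphoid sum (457 TPM) of the LSK libraries, and LK PBS library 1 had 35.2% of its TPM in Gm23935, a transcript of 57 bases. That share takes TPM away from every other gene of the library, so TPM was used for levels and CPM with TMM library sizes (counts scaled to a common library size) for comparisons between libraries, and the counts of called members are given with and without these libraries.

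Levels of the members spanned a wide range and are given per length as TPM, the mean ± SD over 3 PBS libraries in sorted cells. In LSK cells under PBS the highest were Vars at 373 ± 57.1 TPM, Gars at 240.1 ± 45.9 TPM, Nars at 203 ± 28.9 TPM and Hars at 173 ± 16.3 TPM, the enzymes for valine, glycine, asparagine and histidine. Kars, Dars, Farsa, Mars, Iars, Rars, Farsb, Wars and Lars followed between 162 and 101 TPM, and neighbours in this order lay within 1 SD of each other. Sars, Qars, Tars, Yars, Eprs and Aars ran from 95.1 down to 57.0 TPM. Cars, the cysteine enzyme, was the lowest cytosolic member at 23.5 ± 4.48 TPM. Eprs joins 2 amino acids, glutamate and proline, with 1 protein and stood at 60.7 ± 11.5 TPM.

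Mitochondrial members were lower. Apart from Lars2, they ran in LSK cells under PBS from Tars2 at 49.5 ± 14.6 TPM and Iars2 at 44.5 ± 11.9 TPM, over Vars2, Hars2, Rars2, Yars2, Fars2, Sars2, Aars2, Cars2, Pars2, Nars2 and Mars2, to Ears2 at 7.82 ± 4.26 TPM and Wars2 at 6.65 ± 3.46 TPM. The summed cytosolic level was 6.98 ± 0.66 (SD, n = 3) times the summed mitochondrial level without Lars2 in LSK cells under PBS and 6.94 ± 0.26 (SD, n = 3) times in LK cells. With Lars2 the ratios were 5.30 ± 0.84 and 5.16 ± 2.15, the latter from 2.68 in LK PBS library 1 and 6.27 and 6.52 in the other LK PBS libraries. Under IL-1β and without Lars2 the ratio was 7.60 ± 1.02 (SD, n = 2) in LSK and 7.09 ± 0.41 (SD, n = 2) in LK cells, and in MSC it was 8.95 ± 0.10 under PBS and 8.12 ± 0.21 under IL-1β (SD, n = 2 each). These ranges overlapped between the treatments in LSK and in LK cells and did not in MSC, but Lars2 was left out after its values were seen. With Lars2 the treatments overlapped in MSC too, at 8.04 and 6.44 under PBS and 7.06 in both IL-1β libraries.

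**Figure D2:**
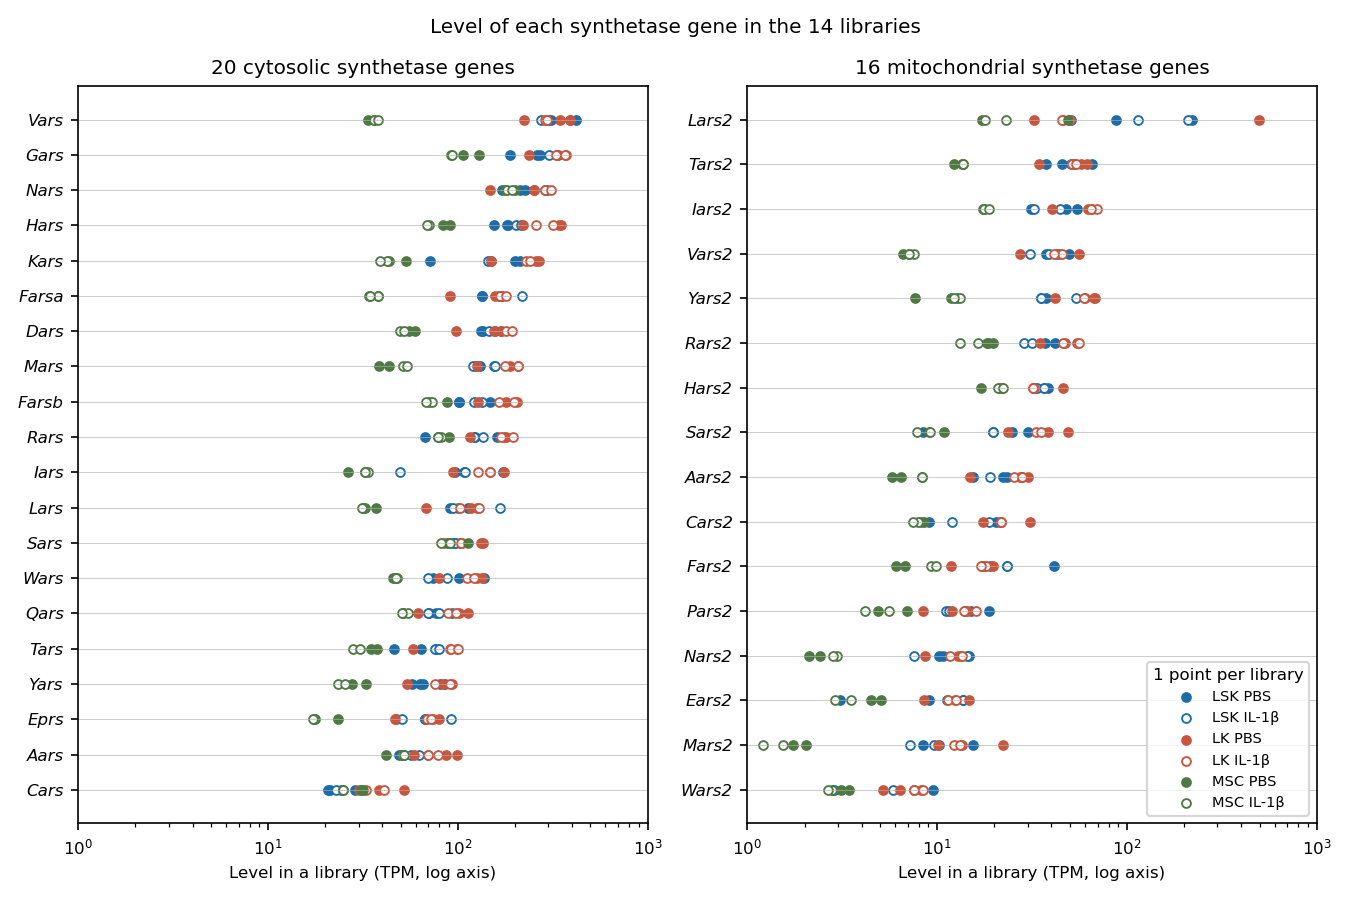
Level of each of the 36 genes in each of the 14 libraries in TPM on a log axis, 1 point per library, filled for PBS and open for IL-1β, with genes ordered by their median. Cytosolic members lie mostly above 20 TPM and mitochondrial ones mostly below 70 TPM, MSC points (green) lie to the left of the others in most rows, and Lars2 spreads from 17.2 to 499.6 TPM.

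The order changed between sorted cells and MSC cultures. The 20 cytosolic members summed to 2585 ± 289 TPM (SD, n = 3) in LSK and 3075 ± 790 TPM (SD, n = 3) in LK cells under PBS, and to 1203 ± 85.4 TPM (SD, n = 2) in MSC. LK PBS library 1 was at 2172 TPM in this sum and the other LK PBS libraries at 3632 and 3422 TPM. Vars was the highest member in LSK and LK cells under PBS and ranked 15th of the 36 in MSC at 34.9 ± 1.71 TPM. Nars, which came to 217 ± 60.5 TPM in LK cells (147 TPM in PBS library 1, 251 and 252 TPM in the others), led in MSC at 189 ± 16.6 TPM. Sars, the serine enzyme, ranked 15th in LSK cells at 95.1 ± 7.30 TPM and 3rd in MSC at 101 ± 17.01 TPM, and its levels overlapped within 1 SD. These cells differed in genotype, in culture and in preparation, which cannot be told apart here, and no test was run between them.

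Lars2, the mitochondrial leucine enzyme (chr9, exon length 11089 bases), was the least steady member. Its level was 50.7, 220.8 and 87.7 TPM in the LSK PBS libraries, 499.6, 32.6 and 46.0 TPM in the LK PBS libraries and 210.4 and 114.1 TPM in the LSK IL-1β libraries. LK PBS library 1 was thus far above the other LK PBS libraries, and the LSK treatments overlapped. CT010467.1 on chromosome 17, named after its values were seen, moved with it, at 38402, 1147 and 3438 TPM in the LK PBS libraries and 4717, 58787 and 13723 TPM in the LSK PBS libraries. Spearman's rho between the levels of Lars2 and CT010467.1 was 0.934 over the 14 libraries, a description of libraries that share their depth and preparation. The part of either transcript's source in the other was not tested.

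**Figure D3:**
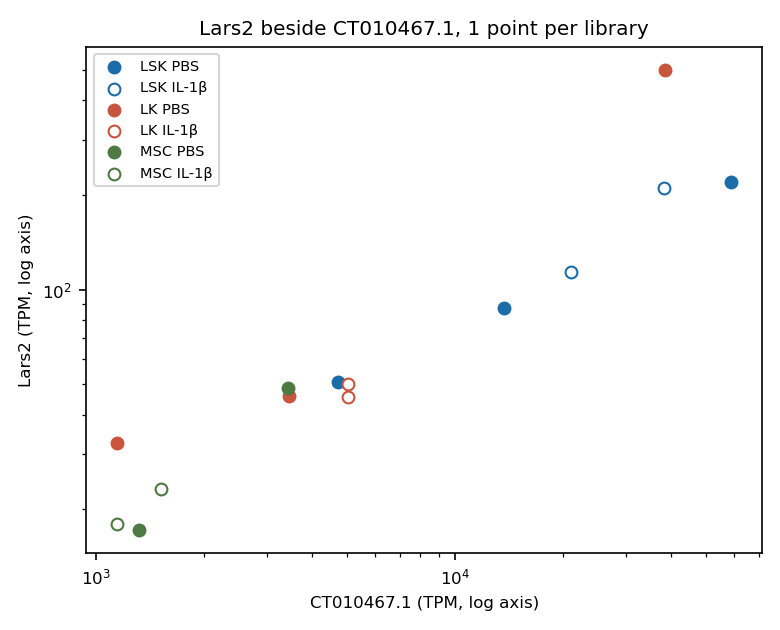
Lars2 against CT010467.1 in TPM on log axes, 1 point per library, filled for PBS and open for IL-1β. The points rise together, from 17.2 TPM of Lars2 in an MSC library to 499.6 TPM in LK PBS library 1.

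Which members differed between the stem cell gate and the progenitor gate was asked next, in mice given PBS. Of the 36 members, 17 were lower in LSK than in LK cells and 0 were higher by edgeR's quasi-likelihood test (adjusted p under 0.05 by Benjamini-Hochberg and a log2 difference over 0.5), which is 47.2% of them. Over all 13839 genes tested, 12.4% were called lower and 19.4% higher in LSK cells. By unadjusted p under 0.05 no member was higher, and none was called higher by DESeq2. The 17 were 11 of the 20 cytosolic and 6 of the 16 mitochondrial members. The median log2 difference of the 36 was -0.55, and 34 of 36 were below 0, beside a median of 0.09 over all genes. Libraries did not overlap, with LSK lower, for 23 of 36 members and for 21.8% of all genes, and with LSK higher for 0 members and 26.2% of all genes. The marker sums moved with the comparison, with erythroid markers at 440 to 753 TPM in LSK and 4058 to 5615 TPM in LK libraries under PBS, and their part was not tested.

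Of the 12 cytosolic members outside the complex 8 were called. Hars, the histidine enzyme, had 112, 151 and 113 CPM in LSK and 271, 251 and 263 CPM in LK libraries (log2 difference -1.06 ± 0.17 (SE), adjusted p = 0.000727). Cars had 47.5, 45.7 and 41.6 CPM in LSK and 99.5, 99.3 and 79.9 CPM in LK libraries (-1.05 ± 0.16 (SE), adjusted p = 0.000631). Aars, the alanine enzyme, had 162, 164 and 136 CPM in LSK and 274, 268 and 254 CPM in LK libraries (-0.78 ± 0.14 (SE), adjusted p = 0.00149). In all 3 genes each LSK library was below each LK library, and the spread within a population was small beside the gap. Farsb, the beta subunit of the phenylalanine enzyme, had 97.3, 89.5 and 79.3 CPM in LSK and 168, 156 and 147 CPM in LK libraries (-0.82 ± 0.16 (SE), adjusted p = 0.00237). The alpha subunit Farsa had 153, 253 and 182 CPM in LSK and 207, 224 and 224 CPM in LK libraries (-0.15 ± 0.18 (SE), adjusted p = 0.546) and was not called. The Farsa libraries overlapped, with LSK library 2 above every LK library.

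Tars, the threonine enzyme, had 114, 91.4 and 112 CPM in LSK and 172, 171 and 168 CPM in LK libraries (-0.69 ± 0.15 (SE), adjusted p = 0.00438). Gars had 212, 277 and 174 CPM in LSK and 371, 338 and 328 CPM in LK libraries (-0.64 ± 0.18 (SE), adjusted p = 0.0151). Yars, the tyrosine enzyme, had 94.1, 131 and 102 CPM in LSK and 161, 161 and 155 CPM in LK libraries (-0.54 ± 0.16 (SE), adjusted p = 0.0226). All 3 hold the amino acid response motif shown above and none overlapped between the populations. Iars, which holds it too, missed the threshold at -0.42 ± 0.22 (SE), adjusted p = 0.16. Kars, Mars, Sars and Farsb, whose windows lack the motif, were called as well and did not overlap either. Sars had 121, 179 and 136 CPM in LSK and 219.8, 204 and 214 CPM in LK libraries (-0.55 ± 0.16 (SE), adjusted p = 0.024), with LSK library 2 nearest to the LK range. Vars had 553, 794 and 518 CPM in LSK and 629, 637 and 607 CPM in LK libraries (-0.01 ± 0.18 (SE), adjusted p = 0.982), the smallest difference of the 36, and its populations overlapped. Wars, the tryptophan enzyme, stood at -0.41 ± 0.16 (SE), adjusted p = 0.0661, and Nars at -0.33 ± 0.17 (SE), adjusted p = 0.172.

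Within the complex 3 of 8 members were called. Mars, the methionine enzyme, had 134, 144 and 133 CPM in LSK and 218, 207 and 203 CPM in LK libraries (-0.61 ± 0.14 (SE), adjusted p = 0.00511). Rars, the arginine enzyme, had 131, 72.9 and 119 CPM in LSK and 189, 164 and 182 CPM in LK libraries (-0.73 ± 0.20 (SE), adjusted p = 0.0162). Kars, the lysine enzyme, had 241, 108 and 265 CPM in LSK and 336, 337 and 378 CPM in LK libraries (-0.77 ± 0.26 (SE), adjusted p = 0.0412). Libraries of the 3 genes did not overlap, and LSK library 2 was the lowest for Rars and Kars. Eprs (-0.38 ± 0.20 (SE), adjusted p = 0.177), Lars (-0.25 ± 0.20 (SE), adjusted p = 0.375) and Dars (-0.17 ± 0.19 (SE), adjusted p = 0.53) were not called, and Qars (-0.45 ± 0.13 (SE), adjusted p = 0.0189) passed the p threshold with a difference under 0.5. Of the scaffold proteins, Eef1e1 (-1.23 ± 0.23 (SE), adjusted p = 0.0018) and Aimp2 (-0.98 ± 0.27 (SE), adjusted p = 0.0151) were lower in LSK cells and Aimp1 was at -0.37 ± 0.21 (SE), adjusted p = 0.214.

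Among the mitochondrial members the called ones were Yars2, Sars2, Ears2, Rars2, Mars2 and Iars2. Yars2, the tyrosine enzyme, had 29.6, 13.6 and 33.0 CPM in LSK and 66.2, 62.5 and 66.2 CPM in LK libraries (-1.35 ± 0.30 (SE), adjusted p = 0.00497). Sars2 had 20.8, 9.45 and 29.6 CPM in LSK and 39.3, 47.4 and 40.1 CPM in LK libraries (-1.08 ± 0.32 (SE), adjusted p = 0.0225). Ears2, the glutamate enzyme, had 14.7, 5.35 and 13.9 CPM in LSK and 22.0, 22.2 and 20.04 CPM in LK libraries (-0.92 ± 0.32 (SE), adjusted p = 0.0448). LSK library 2 was the lowest of all libraries for the 3 genes, and the populations did not overlap with or without it. Rars2 had 29.3, 17.4 and 30.5 CPM in LSK and 48.5, 44.3 and 40.9 CPM in LK libraries (-0.79 ± 0.23 (SE), adjusted p = 0.0205). Mars2 had 44.1, 32.003 and 34.5 CPM in LSK and 57.4, 73.6 and 48.0 CPM in LK libraries (-0.70 ± 0.20 (SE), adjusted p = 0.0206). Iars2 had 122, 93.7 and 127 CPM in LSK and 181, 161 and 182 CPM in LK libraries (-0.61 ± 0.16 (SE), adjusted p = 0.0112). These 3 also kept apart in every library. The highest member was Fars2, with 27.3, 80.4 and 29.4 CPM in LSK and 34.3, 29.96 and 35.7 CPM in LK libraries (0.46 ± 0.34 (SE), adjusted p = 0.337), where LSK library 2 alone was above the LK libraries. Pars2 at 0.19 was the other member above 0, and Lars2 at -1.28 ± 1.22 (SE), adjusted p = 0.466 had the widest error.

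**Figure D4:**
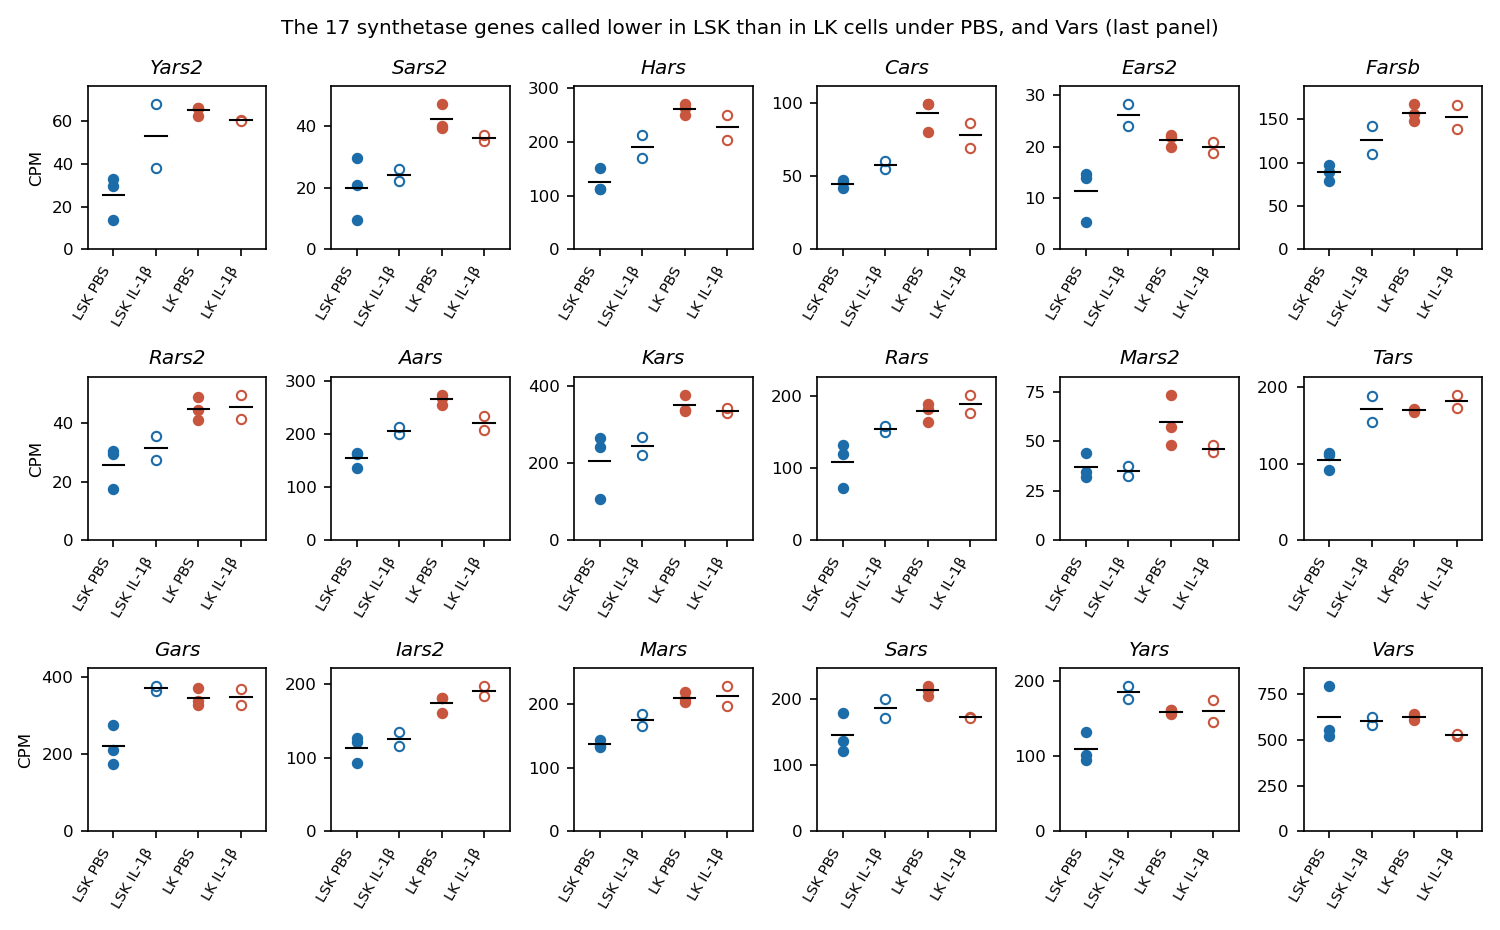
CPM in each LSK and LK library for the 17 called members and Vars, with filled points for PBS, open points for IL-1β and a bar at the group mean. Under PBS the LSK points lie below the LK points in the 17 called genes and overlap them in Vars. The IL-1β points of LSK cells lie nearer to the LK points in most panels. The 17 genes were picked because their LSK PBS values were below the LK ones, so other LSK libraries tend to lie nearer through that choice.

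With the replicate number as a block, 18 members were lower, with Cars2 added (adjusted p = 0.0346 against 0.0584 without the block). Without PBS library 1 of both populations 8 members were lower (Aars, Cars, Hars, Rars, Tars, Farsb, Mars2 and Yars2) and Lars2 was higher at a log2 difference of 1.999. Without PBS library 2 of both populations 14 were lower, with Nars and Tars2 added and Kars, Ears2, Mars2, Rars2 and Sars2 no longer called. Over all genes the block called 1836 lower of 13839. The fit without PBS library 1 called 928 lower and 1130 higher of 13328, and the fit without PBS library 2 called 1422 lower of 13193. Aars, Cars, Hars, Rars, Tars, Farsb and Yars2, 7 of the 17, were called in the main fit and in all 13 alternatives.

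Other genes of tRNA use in the same comparison were lower in part. Of 4 mitochondrial elongation factors, Gfm1 (-0.94 ± 0.14 (SE), adjusted p = 0.000396), Tufm (-0.76 ± 0.16 (SE), adjusted p = 0.00456) and Gfm2 (-0.64 ± 0.20 (SE), adjusted p = 0.027) were lower in LSK cells, whereas 0 of 5 cytosolic elongation factors were called, with values from -0.32 for Eef1b2 to -0.04 for Eef1a1. Of 20 genes listed as ATF4 and its non-synthetase targets 19 were tested, with 7 lower and 1 higher. The lower ones were Asns (-2.53 ± 0.22 (SE), adjusted p = 2.19e-05), which makes asparagine, Mthfd2 (-1.53), Ddit3 (-1.44), Atf4 itself (-0.96), Slc7a5 (-0.85), Shmt2 (-0.64) and Slc3a2 (-0.52), and Ddit4 was higher (1.72 ± 0.24 (SE), adjusted p = 0.000348). The 13 synthetases described as ATF4 targets had a median of -0.54 with 7 called, and the 7 cytosolic members outside that list had a median of -0.73 with 4 called. Ddit3 lies opposite Mars on the other strand, and the counting was strand-specific. Of the 7 genes for Myc and early nucleolar proteins, Odc1, Nop56, Npm1 and Nop58 were lower, from -0.89 to -0.62.

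Under IL-1β the same contrast of LSK with LK cells called 0 of 36 members in either direction, where 4.4% of the 13839 genes were called. By unadjusted p under 0.05 Iars and Iars2 were lower, at -0.61 ± 0.27 (SE), adjusted p = 0.211 and -0.60 ± 0.19 (SE), adjusted p = 0.102, and DESeq2 called 1 member, Iars2. Over all 13839 genes 1502 were higher and 1513 lower at that p, and DESeq2 called 655 higher and 682 lower. The median of the members was -0.11 beside -0.01 over all genes. The highest values were Lars2 at 1.94, Fars2 at 0.63 and Ears2 at 0.40, and the lowest was Wars2 at -0.68. With 2 libraries per population 9 members were higher and 13 lower without overlap, beside 27.1% and 29.8% of all genes. Gars (0.09), Eprs (0.21), Kars (-0.46), Wars (-0.37) and Qars (-0.12) lay between these ends. The standard errors were wider than under PBS, for example 0.21 against 0.17 for Hars.

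In LSK cells most synthetase genes were higher with IL-1β, but none passed the test in the main fit. The 36 members had a median log2 fold change of 0.39, and 31 of 36 were above 0, beside a median of -0.06 and 46.5% above 0 over all genes. edgeR's quasi-likelihood test called 0 members, where it called 0.632% of the 13132 genes tested. At an unadjusted p under 0.05 there were 10 members, all higher (Gars, Hars, Lars, Nars, Tars, Yars, Farsa, Farsb, Ears2 and Yars2). Over all 13132 genes 1052 were higher and 1379 lower at that p. DESeq2 called Nars, Tars and Yars, beside 410 genes higher and 481 lower. The IL-1β libraries were above every PBS library for 14 of 36 members, against 18.2% of all genes, and below for 0 members, against 21.4%. These folds use the same 3 LSK PBS libraries as the comparison with LK cells, so the 2 sets of values are not independent.

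Ears2 had 14.2, 5.40 and 13.98 CPM with PBS and 24.8 and 28.8 CPM with IL-1β (log2 fold change 1.25 ± 0.44 (SE), adjusted p = 0.193). Yars2 had 28.6, 13.7 and 33.2 CPM with PBS and 39.2 and 68.9 CPM with IL-1β (1.095 ± 0.40 (SE), adjusted p = 0.201). Nars, the asparagine enzyme, had 225, 336 and 223 CPM with PBS and 457 and 509.7 CPM with IL-1β (0.89 ± 0.27 (SE), adjusted p = 0.142). In each of the 3 genes both IL-1β libraries were above all PBS libraries, and for Ears2 and Yars2 PBS library 2 was the lowest of the 5. Yars had 90.9, 133 and 102 CPM with PBS and 180.0 and 196 CPM with IL-1β (0.79 ± 0.25 (SE), adjusted p = 0.154). Gars had 205, 279.6 and 175 CPM with PBS and 374 and 383 CPM with IL-1β (0.78 ± 0.26 (SE), adjusted p = 0.174). Tars had 109.6, 92.3 and 112 CPM with PBS and 159 and 190.4 CPM with IL-1β (0.74 ± 0.23 (SE), adjusted p = 0.156). These also did not overlap.

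At the low end Iars had 223, 174 and 169 CPM with PBS and 204 and 107 CPM with IL-1β (-0.28 ± 0.31 (SE), adjusted p = 0.659). Wars2 had 13.8, 5.72 and 13.5 CPM with PBS and 12.3 and 6.94 CPM with IL-1β (-0.18 ± 0.52 (SE), adjusted p = 0.877). Pars2, the proline enzyme of mitochondria, had 14.2, 14.8 and 13.98 CPM with PBS and 12.2 and 14.6 CPM with IL-1β (-0.10 ± 0.35 (SE), adjusted p = 0.905). The treatments overlapped in all 3. Eprs (0.58 ± 0.30 (SE), adjusted p = 0.327) was above its PBS libraries in 1 of 2 IL-1β libraries, Kars (0.30) and Qars (0.28) were above 0, and Wars was at 0.00. By group the cytosolic median was 0.50 and the mitochondrial 0.30. The complex members had 0.40 and the other cytosolic members 0.59.

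The direction was the same without LSK PBS library 2. Without it the median of the 36 members was 0.55 and Nars alone passed the test, at a log2 fold change of 1.13 and an adjusted p of 0.0408. The fit without that library called 280 genes higher and 200 lower of 12675. With each of the 5 libraries left out in turn the median stayed between 0.30 and 0.55. With LSK and LK libraries fitted together 5 members passed (Gars, Nars, Tars, Yars and Farsa). That fit called 547 genes higher and 681 lower of 13839. Around the synthetases, 0 of 17 tested ATF4 targets passed, with Slc7a11 highest at 2.28 ± 1.26 (SE), adjusted p = 0.359 and Trib3 lowest at -2.46 ± 1.04 (SE), adjusted p = 0.253. Of the Myc and nucleolar list 0 of 7 passed, with a median of 0.80, Odc1 highest at 1.33 ± 0.33 (SE), adjusted p = 0.0986 and Myc lowest at -0.22. The median was 0.53 for the 5 cytosolic and 0.62 for the 4 mitochondrial elongation factors, and 0 of these passed.

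**Figure D5:**
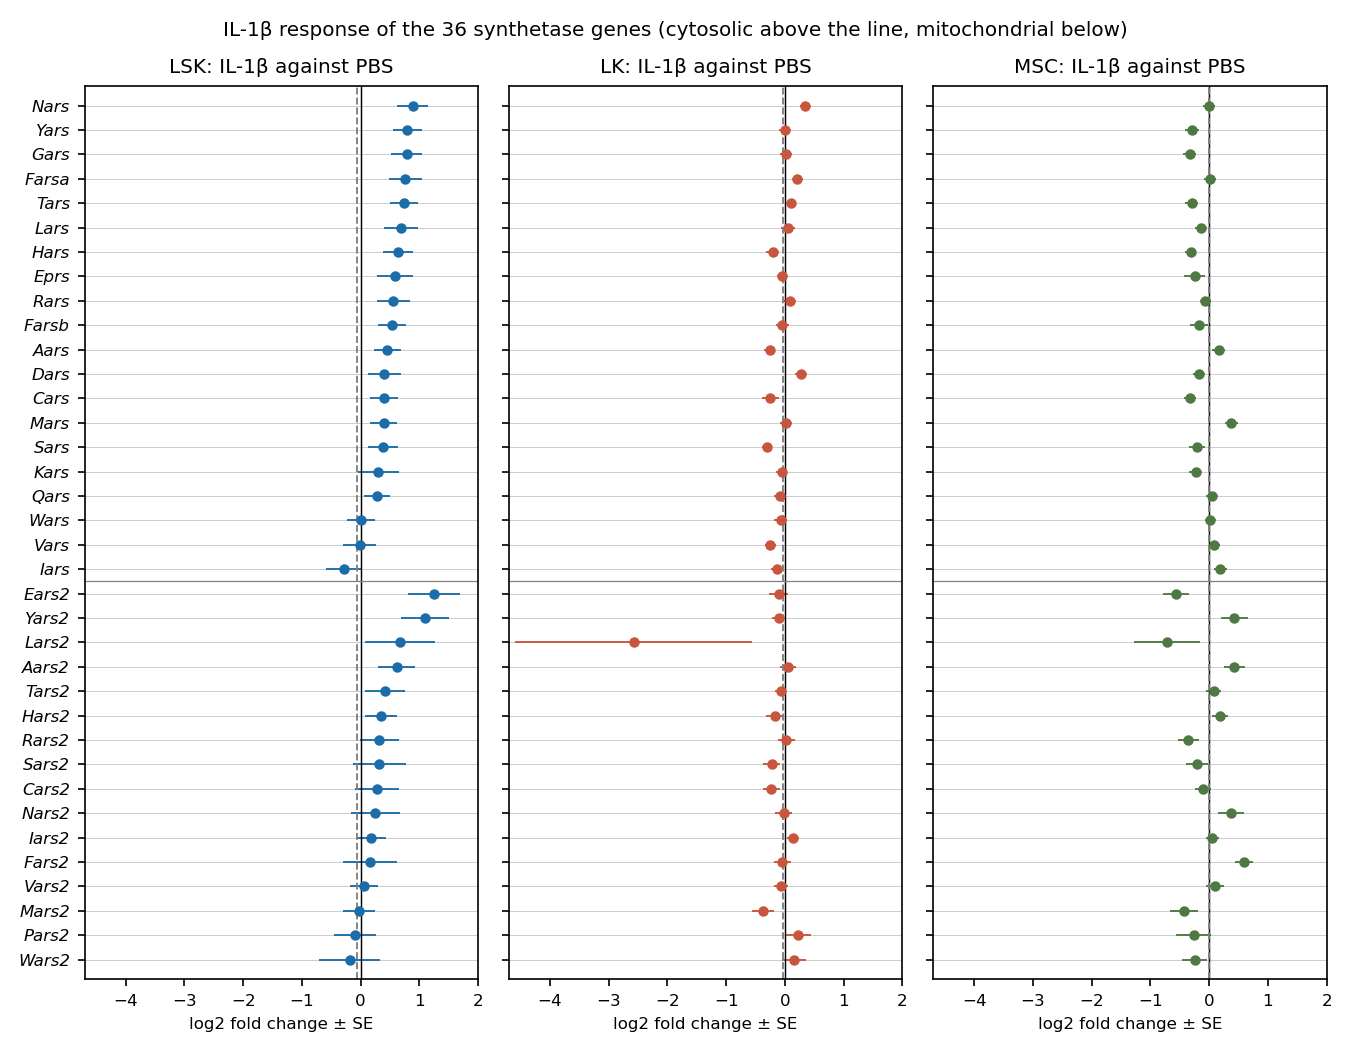
Log2 fold change of IL-1β against PBS with its standard error for the 36 members in LSK, LK and MSC libraries, with a dashed line at the median of all genes tested. In LSK cells 31 of 36 points lie to the right of 0, in LK cells and MSC they lie on both sides, and Lars2 in LK cells has the longest error bar.

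In LK cells no member passed the test. The median log2 fold change was -0.05 beside -0.03 over all genes, and 14 of 36 members were above 0. Without LK PBS library 1 the median was -0.02, with 0 called. edgeR's test called 0 members, where it called 9.34% of the 12835 genes tested, and DESeq2 called 0. At an unadjusted p under 0.05, 2 members were higher (Nars and Dars) and 3 lower (Aars, Sars and Vars). Over all 12835 genes 1795 were higher and 1381 lower at that p. Nars was closest to the threshold, with 320.4, 318 and 344 CPM with PBS and 403 and 431 CPM with IL-1β (0.35 ± 0.09 (SE), adjusted p = 0.051), and each IL-1β library was above each PBS library. Dars, the aspartate enzyme, had 212, 197 and 231 CPM with PBS and 248.6 and 270.5 CPM with IL-1β (0.28 ± 0.10 (SE), adjusted p = 0.131). Pars2 was the third highest, with 13.1, 10.8 and 13.9 CPM with PBS and 13.6 and 15.9 CPM with IL-1β (0.23 ± 0.21 (SE), adjusted p = 0.545), and its treatments overlapped.

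On the other side Sars had 219, 204 and 213 CPM with PBS and 173 and 170.4 CPM with IL-1β (-0.30 ± 0.09 (SE), adjusted p = 0.0694). Mars2 had 57.1, 73.4 and 47.8 CPM with PBS and 44.5 and 47.8 CPM with IL-1β (-0.37 ± 0.19 (SE), adjusted p = 0.265). For Sars the treatments did not overlap, and for Mars2 IL-1β library 2 reached PBS library 3. Lars2 had 2772, 105 and 159.6 CPM with PBS and 162 and 179 CPM with IL-1β (-2.57 ± 2.01 (SE), adjusted p = 0.525), and without LK PBS library 1 its fold change was 0.37. Gars, Kars, Eprs, Wars and Qars were between -0.09 and 0.02. The treatments did not overlap for 5 members with IL-1β higher (Dars, Nars, Tars, Farsa and Iars2) and 5 lower (Aars, Sars, Vars, Sars2 and Yars2), beside 23.5% and 22.2% of all genes. The spread between libraries was smaller here than in LSK cells, with a common biological coefficient of variation of 0.183 against 0.377, and the standard errors of the members other than Lars2 were 0.21 or less. Of the ATF4 targets 19 were tested, with Cebpb (1.51 ± 0.14 (SE), adjusted p = 0.00128), Slc7a11 (2.53 ± 0.55 (SE), adjusted p = 0.0256) and Phgdh (0.59 ± 0.13 (SE), adjusted p = 0.0278) higher and Sesn2 lower (-0.81 ± 0.21 (SE), adjusted p = 0.0453). Cebpb is a myeloid transcription factor, Slc7a11 a cystine transporter, Phgdh the first enzyme of serine synthesis and Sesn2 an amino acid sensor.

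The 10 sorted libraries allowed a test of the interaction, that is of whether LSK cells responded differently from LK cells. It called 0 of 36 members, where it called 0.0289% of all genes. At an unadjusted p under 0.05 were 9 members (Aars, Cars, Gars, Hars, Sars, Tars, Yars, Ears2 and Yars2), all with the larger response in LSK cells. Over all 13839 genes the difference was above 0 for 647 and below 0 for 1320 at that p. DESeq2 called Aars, beside 116 genes higher and 218 lower. Without PBS libraries 1, or without PBS libraries 2, of both populations edgeR also called 0 members. The difference was above 0 for 33 of 36 members with a median of 0.47, beside -0.12 over all genes. It was largest for Lars2 (3.22 ± 1.95 (SE), adjusted p = 0.489), Ears2 (1.32 ± 0.51 (SE), adjusted p = 0.286) and Yars2 (1.16 ± 0.47 (SE), adjusted p = 0.306) and lowest for Wars2 (-0.37), Pars2 (-0.37) and Iars (-0.19). Gars was at 0.73 ± 0.28 (SE), adjusted p = 0.279, and Eprs, Kars, Qars and Wars at 0.59, 0.32, 0.33 and 0.04.

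In MSC cultures 0 of 36 members were called, where 11.4% of the 13239 genes tested were. The median log2 fold change was -0.12 beside 0.00 over all genes, with 15 of 36 above 0. At an unadjusted p under 0.05, 2 members were higher (Mars and Fars2) and 6 lower (Cars, Gars, Hars, Tars, Yars and Ears2). Over all 13239 genes 2099 were higher and 1869 lower at that p. DESeq2 called 0 members. Fars2, the mitochondrial phenylalanine enzyme, had 12.7 and 12.2 CPM with PBS and 17.8 and 19.6 CPM with IL-1β (0.59 ± 0.15 (SE), adjusted p = 0.0622). Yars2 had 12.2 and 8.36 CPM with PBS and 13.8 and 13.3 CPM with IL-1β (0.43 ± 0.22 (SE), adjusted p = 0.258). Aars2 had 9.003 and 10.8 CPM with PBS and 13.2 and 13.6 CPM with IL-1β (0.42 ± 0.18 (SE), adjusted p = 0.177). In each of the 3 genes both IL-1β libraries were above both PBS libraries.

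Ears2 had 7.50 and 9.04 CPM with PBS and 6.07 and 5.12 CPM with IL-1β (-0.57 ± 0.23 (SE), adjusted p = 0.165). Mars2 had 7.50 and 6.85 CPM with PBS and 5.80 and 4.68 CPM with IL-1β (-0.43 ± 0.24 (SE), adjusted p = 0.279). Lars2 had 62.0 and 189 CPM with PBS and 66.5 and 88.5 CPM with IL-1β (-0.72 ± 0.55 (SE), adjusted p = 0.458). Ears2 and Mars2 were lower in both IL-1β libraries, while Lars2 was high in PBS library 3 alone. The treatments did not overlap for 9 members with IL-1β higher and 15 lower, beside 31.3% and 29.8% of all genes. The cytosolic median was -0.15 and the mitochondrial -0.03. Cytosolic Cars (-0.33), Gars (-0.33), Hars (-0.32), Tars (-0.30) and Yars (-0.29) were at the low end and Mars (0.38) and Iars (0.19) at the high end, with Eprs at -0.25, Kars at -0.23, Qars at 0.04 and Wars at 0.02. With each library left out in turn, which left 1 library in a group, the median log2 fold change of the members stayed between -0.11 and -0.03. The 8 macrophage markers summed to 33520 and 23962 TPM under PBS and 65862 and 65756 TPM under IL-1β, and their part was not tested.

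Genes around the synthetases did pass in MSC. Of 20 ATF4 targets 5 fell, namely the serine pathway enzymes Phgdh (-1.73 ± 0.21 (SE), adjusted p = 0.00865) and Psat1 (-1.38 ± 0.26 (SE), adjusted p = 0.03), the transcription factor Atf3 (-1.32 ± 0.17 (SE), adjusted p = 0.00991), the folate enzyme Mthfd2 (-0.68 ± 0.12 (SE), adjusted p = 0.025) and Asns (-0.62 ± 0.12 (SE), adjusted p = 0.0312). Cebpb (1.03 ± 0.10 (SE), adjusted p = 0.00503) and Ddit4 (0.73 ± 0.15 (SE), adjusted p = 0.0356) rose. Of the Myc and nucleolar list 5 of 7 fell (Myc, Odc1, Nop58, Npm1 and Fbl), from -0.97 to -0.55. The scaffold genes Eef1e1, Aimp2 and Aimp1 were all below 0, from -0.63 to -0.40, and 0 of 3 passed, with 0 of 5 cytosolic and 0 of 4 mitochondrial elongation factors.

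Side by side, the response of Gars was 0.78 in LSK cells, 0.02 in LK cells and -0.33 in MSC. For Ears2 these values were 1.25, -0.11 and -0.57, and for Nars 0.89, 0.35 and -0.00. Other members ran in another order, such as Yars2 at 1.095, -0.11 and 0.43 and Fars2 at 0.16, -0.04 and 0.59. In the main fits no member passed edgeR's test in any of the 3 responses. The sorted cells were exposed in mice for 16 weeks and the cultures for 72 h, so dose and time differ and no test was run between them. The remaining members, Hars2, Vars2, Tars2, Nars2, Cars2, Rars2 and Sars2, stayed between -0.35 and 0.41 in the 3 responses.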

How the data were processed

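The deposited values were raw counts of read pairs per gene. Per the labels and methods, the authors trimmed reads with fastp 0.20.0, aligned them to GRCm38 with HISAT2 2.0.1 and counted them per Ensembl gene with featureCounts 2.0.2 in reverse-stranded mode, without normalization. The libraries were depleted of ribosomal RNA. Reads that overlapped more than 1 gene on a strand were lost, which touches Aars, Cars, Iars, Wars, Farsa, Farsb, Fars2 and Wars2. Members were found by symbol, and the members and lists were chosen with earlier results of these data known.

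Counts were tested with edgeR 4.0.16 in R 4.3.3 (filterByExpr, TMM factors, robust glmQLFit, glmQLFTest, Benjamini-Hochberg adjustment over all genes tested), within each population for IL-1β against PBS and over the 10 sorted libraries for LSK against LK cells and for the interaction. Genes were called where the adjusted p was under 0.05 and the log2 fold change over 0.5 in size, and the standard error is the fold change divided by the square root of F. All 36 members passed the filter on low counts in every comparison. TPM was computed from the counts and the exon lengths in the files. Same-numbered LSK and LK libraries deviated from their group means together (correlations 0.211, 0.128 and 0.472 under PBS and 0.100 under IL-1β, from log2 CPM and a prior count of 2), so the numbers were taken to pair them. However, PBS pairs of different numbers ran from -0.381 to 0.162 and numbers 1 and 2 were not told apart. With 2 IL-1β libraries per population, pairs of different numbers gave -0.100 by construction. The main fits had no replicate block, which was run as an alternative. Alternatives were DESeq2 1.42.0, other size factors, other filters, no fold threshold, thinned libraries, the block, joint fits and each library left out. The test code was also run on counts simulated from the fitted model, with planted changes larger than those of most members. That run does not measure how often differences of the members' size are found. In each comparison the called members, the 3 highest, the 3 lowest and Eprs, Wars, Gars, Kars and Qars were named. Further members and the members of the lists are named where a count turns on them. Figures were drawn with matplotlib 3.10.9.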

Additional observations from a re-analysis of the deposited data

Results flagged for a closer look

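For Aars and Yars2 each IL-1β library was above each PBS library in LSK cells and below each in LK cells. They are listed for that reason. In the main fits no fold change of either gene passed edgeR's test in either population. Yars2 did pass in LSK cells under some of the alternative settings given further below. Aars had 157, 166 and 137 CPM under PBS and 205 and 215 CPM under IL-1β in LSK cells, and 272, 267 and 253 against 207 and 234 CPM in LK cells. The log2 fold changes of Aars were 0.46 ± 0.23 (SE), adjusted p = 0.307 in LSK and -0.26 ± 0.10 (SE), adjusted p = 0.14 in LK cells. The interaction over the 10 libraries gave 0.68 ± 0.22 (SE), adjusted p = 0.235 for Aars by edgeR's quasi-likelihood test, so the difference itself did not pass, while DESeq2 called it. Yars2 had 28.6, 13.7 and 33.2 CPM under PBS and 39.2 and 68.9 CPM under IL-1β in LSK cells, and 65.9, 62.3 and 66 against 60.3 and 60 CPM in LK cells. Its fold changes were 1.095 ± 0.40 (SE), adjusted p = 0.201 and -0.11 ± 0.11 (SE), adjusted p = 0.586, and the interaction was 1.16 ± 0.47 (SE), adjusted p = 0.306.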

How the results depend on the processing

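The 17 members lower in LSK than in LK cells under PBS became 19 by DESeq2 and by its size factors, and 22 with no filter on low counts. They were 17 or 18 under the other settings that kept all libraries, and all these counts were within 1.5 times. Of all 13839 genes 2166 were lower by DESeq2 and 1950 by its size factors, and 2379 of 24037 with no filter. Leaving out 1 library number of a treatment from both populations gave 8 to 19, the 8 being without PBS number 1, where 1 member, Lars2, was higher (0 to 1 over these fits). In LSK cells the 0 calls for IL-1β became 3 by DESeq2, 1 with no filter (Yars2), 5 in the joint fit and 1 with the replicate block (Yars2). With a single PBS library left out there was at most 1. Over all genes the LSK fit with no filter called 355 higher and 514 lower of 21196. The LSK fit with the block called 314 higher and 388 lower of 13132. In LK cells the count was 0 in every alternative. In MSC it was 1 higher with no filter, beside 1439 genes higher and 915 lower of 22527. Each MSC fit with a library left out kept 1 library in a group, so its count is not given. For LSK against LK cells under IL-1β 1 member was lower by DESeq2 and 1 higher with no filter, with 0 to 1 in each direction over the left-out libraries. For the interaction 1 member was higher by DESeq2 and 2 with no filter (Lars2 and Yars2). Of all 24037 genes with no filter, LSK against LK cells under IL-1β gave 716 higher and 694 lower. The interaction with no filter gave 170 higher and 228 lower. Same-numbered PBS and IL-1β libraries did not deviate together (correlations 0.140 and -0.039 in LSK, -0.103 and 0.061 in LK cells), so the block shares only a number there. For MSC no paired analysis was possible because the groups share only 1 number. Beside these and the 18 given above, the block changed no member count. RPKM and TMM library sizes leave a ratio within a library as it is by construction, so that alternative tests nothing about the cytosolic to mitochondrial ratio. Without Lars2, an alternative chosen after seeing the data, the ratio was 6.98 in LSK PBS, 7.60 in LSK IL-1β, 7.09 in LK IL-1β, 8.95 in MSC PBS and 8.12 in MSC IL-1β.

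Signs turned for members with small or unsteady fold changes. In LSK cells Wars was at -0.0229 with no filter and -0.0391 in the joint fit, and Wars2 at 0.0434 with the block. In LK cells Gars was at -0.0267 with upper-quartile factors, -0.0098 with no filter and -0.0202 with the block, and Kars at 0.00080 with the block. In MSC Qars was at -0.0216 and Wars at -0.0448 with upper-quartile factors. Lars2 in LSK against LK cells under PBS was at 0.29 with the block. With single libraries left out, the fold changes in LSK cells ran from -0.82 to 0.13 for Iars, -0.0841 to 0.12 for Wars, -0.21 to 0.0259 for Pars2 and -0.67 to 0.17 for Wars2. In LK cells they ran from -0.0607 to 0.0844 for Gars, -0.0828 to 0.0074 for Kars and -3.11 to 0.37 for Lars2, and in MSC from -0.46 to 0.0387 for Eprs, -0.015 to 0.0601 for Wars and -1.30 to 0.31 for Lars2. In LSK against LK cells they ran under PBS from -0.21 to 0.0044 for Vars, -0.31 to 0.67 for Fars2 and -2.78 to 1.999 for Lars2, and under IL-1β from -0.23 to 0.54 for Eprs and -0.0257 to 0.15 for Gars. For the interaction they ran from -0.79 to 0.31 for Iars, -0.0384 to 0.23 for Wars, -0.0429 to 4.72 for Lars2 and -0.73 to 0.0184 for Wars2. The cause of these changes was not tested.

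With 2 IL-1β libraries per population, every one shallower than the PBS libraries beside it, differences in LSK cells had standard errors of 0.22 to 0.60, and a member that misses the threshold there is not shown to be level.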
